A study of Mus musculus with 3 samples.

Results

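Proximal tubule (PT) cells were examined in dissected mouse renal medullas, as the cells that carried the deposited cell type label PT, and were divided into the 4 deposited clusters PT-S1S2, PT-S2, PT-S3_a and PT-S3_b. There were 12065 PT cells among 181257 cells of 7 cell types and 25 clusters. By cluster, 4428 were PT-S1S2, 1843 PT-S2, 2924 PT-S3_a and 2870 PT-S3_b.

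The tissue came from male BALB/c mice in 3 groups, namely healthy controls, day 28 and day 84 after reversible unilateral ureteral obstruction (R-UUO), in which a vascular clamp closes the left ureter and is later taken off. Mice were operated at 12 to 13 weeks of age, and in the long-term R-UUO experiments the opposite kidney was removed after the release. Controls are described as healthy, so the groups compared with them differed in the obstruction, the nephrectomy and the time after surgery together. Each pool combined medullas of 3 to 4 mice, and there were 4 control pools, 4 day 28 pools and 2 day 84 pools. Fixed cells were profiled with a probe-based single-cell RNA assay (10x Flex), in which the pools of a run carry their own probe barcodes.

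The proximal tubule is the part of the nephron that takes back most of the filtered sodium, water, glucose, amino acids and phosphate. Its S1 and S2 segments form the convoluted part and the beginning of the straight part in the cortex and medullary rays, and S3 is the straight end, which lies in the outer stripe of the outer medulla and passes into the thin descending limb. Proximal tubule cells are rich in mitochondria, which power solute transport. Lrp2, which encodes the endocytic receptor megalin, and Slc34a1, which encodes a sodium-phosphate cotransporter, are markers of the proximal tubule. Levels of single genes were not analysed here, so the PT label and the segment names were taken as deposited and could not be checked against these markers.

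Several properties of the pools bear on the values. Droplet barcodes of 2 pools overlapped by a median of 25.4% of the smaller pool within a condition and of 2.78% between conditions, so the pools of a condition shared droplets and run and condition cannot be told apart. By droplet, 57.3% of control, 49.5% of day 28 and 23.5% of day 84 PT cells shared a barcode with a cell of another pool of their condition, against 57.5%, 48.4% and 24.8% of the other cells. The cells that shared a droplet with a day 28 PT cell were themselves PT in 12.9% of cases, against a PT share of 13.3% in the pools they came from. Leaving out all cells in shared droplets, the PT share still rose at day 28 (by 4.55 in log2 odds, limma adjusted p = 0.00831). Summed over all pairs of pools, 3494 whole barcodes, droplet part and pool tag together, were found in 2 pools. UMI totals of control pool 1 were not all whole numbers, whereas those of the other pools were. Day 84 pool 2 had few mitochondrial UMIs as a whole, with none in 97.2% of its PT cells and in 96.7% of its other cells. Total cells ranged from 13013 to 24338 per pool. The study describes its medullary dissections as uneven in how much outer medulla they contained.

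PT cells made up a larger share of the day 28 pools than of the controls. They numbered 85, 734, 161 and 23 in control pools 1 to 4, which was 0.435%, 3.02%, 1.12% and 0.113% of all cells (mean 1.17% ± 1.30, SD, n = 4). In day 28 pools 1 to 4 there were 2965, 2969, 2145 and 459 PT cells, or 22.8%, 21.2%, 13.0% and 2.95% (mean 15.0% ± 9.09, SD, n = 4). Day 84 pools 1 and 2 held 712 and 1812 PT cells, or 3.60% and 7.64% (mean 5.62% ± 2.85, SD, n = 2). The control pools thus spanned a wide range among themselves, and day 28 pool 4 lay below control pool 2, while the other 3 day 28 pools and both day 84 pools lay above every control. Wilson 95% intervals, which cover counting error only, ran from 0.0754% to 0.170% in control pool 4 and from 22.1% to 23.5% in day 28 pool 1, so counting error was small beside the spread between pools.

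On the log2 scale of the odds, with each pool as 1 replicate, the PT share was higher at day 28 than in controls by 4.40 (SE 1.10, limma, adjusted p = 0.00644 over 7 cell types). In the exact two-sided permutation test the p was 0.0571, and the smallest that 4 against 4 pools allow is 0.0286. Of the 7 cell types, 57.1% passed in this comparison. At day 84 the difference from controls was 3.10 (SE 1.35, limma adjusted p = 0.116), and the exact permutation p was 0.133, where 0.0667 is the smallest possible for 2 against 4 pools. This comparison passed without control pool 2 (3.85, limma adjusted p = 0.0368). Day 84 and day 28 differed by -1.31 (SE 1.35, limma adjusted p = 0.508). Counted by UMIs instead of cells, PT cells held 0.661%, 6.99%, 1.23% and 0.108% of the UMIs of the control pools, 25.7%, 28.6%, 14.9% and 3.52% of day 28, and 2.83% and 9.91% of day 84.

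**Figure D1:**
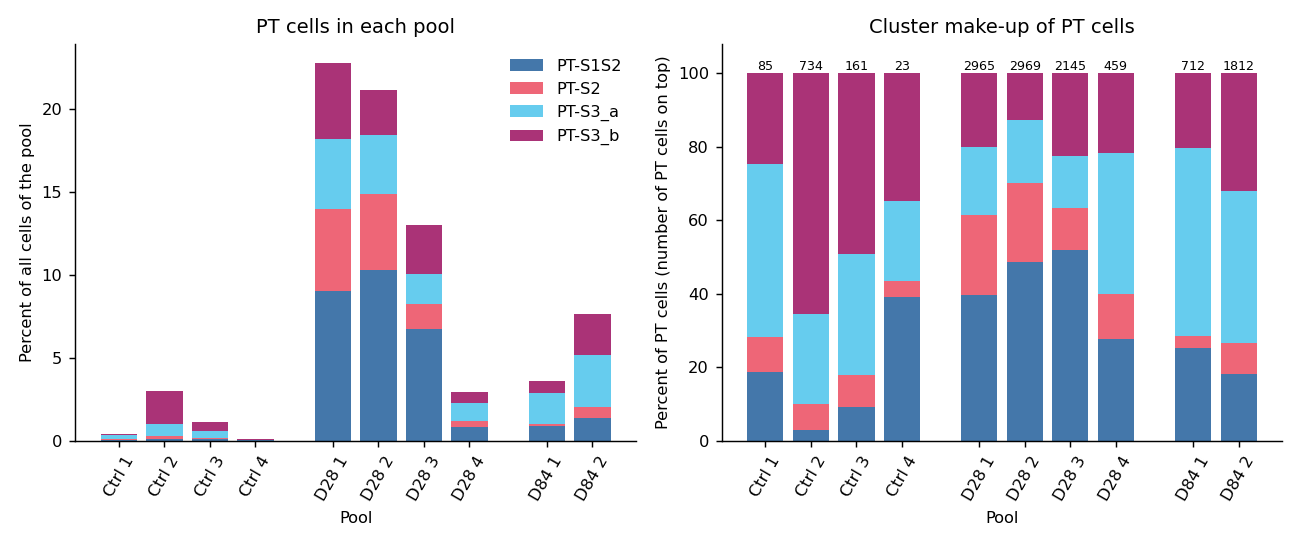
Left, PT cells of each cluster as a percent of all cells of the pool (stacked bars, 1 bar per pool); right, the 4 clusters as a percent of the PT cells of the pool, with the number of PT cells above each bar. PT cells reach 22.8% in day 28 pool 1 and stay at or under 3.02% in the controls, and the 2 S3 clusters together fill 56.5% to 90.1% of the control bars but 29.8% to 59.9% of the day 28 bars.

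The 4 clusters did not share in this equally. As a share of all cells, all 4 passed the test against controls at day 28, where 88% of the 25 clusters did. PT-S1S2 was rare and even in the controls, at 0.0818%, 0.0904%, 0.104% and 0.0443% of all cells. It stood at 9.04%, 10.3%, 6.74% and 0.815% in the day 28 pools, all above every control, and the log2 odds rose by 6.01 (SE 0.78, limma adjusted p = 1.8e-04, exact two-sided permutation p = 0.0286). PT-S2 rose by 5.24 (SE 1.21, limma adjusted p = 0.00386), PT-S3_a by 3.61 (SE 0.95, limma adjusted p = 0.00740) and PT-S3_b by 3.08 (SE 1.19, limma adjusted p = 0.0362). The call for PT-S3_b was lost when control pool 1 or 4, or day 28 pool 1, 2 or 3, was left out (limma adjusted p from 0.0705 to 0.0939), and with edgeR on cell numbers (2.02, adjusted p = 0.112).

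At day 84, PT-S1S2 stood at 0.906% and 1.38% of all cells and PT-S3_a at 1.84% and 3.17%. Both passed against controls, with log2 differences of 3.84 (SE 0.96, limma adjusted p = 0.0118, exact two-sided permutation p = 0.0667) and 3.64 (SE 1.17, limma adjusted p = 0.0263, exact two-sided permutation p = 0.133), in a comparison in which 48% of the 25 clusters passed. PT-S2 differed by 2.51 (limma adjusted p = 0.167) and PT-S3_b by 2.34 (limma adjusted p = 0.181). The PT-S3_a call was lost without either day 84 pool (limma adjusted p = 0.108 and 0.126) and the PT-S1S2 call without pool 2 (limma adjusted p = 0.0688).

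Within the PT cells, PT-S1S2 and PT-S2 took larger shares and PT-S3_b a smaller one at day 28 than in the controls. PT-S1S2 was 18.8%, 3.00%, 9.32% and 39.1% of the PT cells in control pools 1 to 4, and 39.7%, 48.6%, 51.9% and 27.7% in day 28 pools 1 to 4. Control pool 4, with 9 PT-S1S2 among 23 PT cells, has a Wilson 95% interval from 22.2% to 59.2% and reaches into the day 28 range. PT-S2 was 9.41%, 6.95%, 8.70% and 4.35% in the controls and 21.7%, 21.7%, 11.5% and 12.4% at day 28. Control pools 1 and 4 held 8 and 1 PT-S2 cells. Their Wilson 95% intervals, from 4.85% to 17.5% and from 0.772% to 21.0%, reach into the day 28 range. PT-S3_b was 24.7%, 65.4%, 49.1% and 34.8% in the controls and 20.1%, 12.8%, 22.6% and 21.6% at day 28, in the opposite direction. Here too the intervals of control pools 1 and 4, from 16.8% to 34.8% and from 18.8% to 55.1%, reach into the day 28 range. PT-S3_a was 47.1%, 24.7%, 32.9% and 21.7% in the controls and 18.5%, 17.0%, 14.0% and 38.3% at day 28, with day 28 pool 4 inside the control range.

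By limma on log2 odds over the 23 clusters that share a cell type with another, 3 of the 4 PT clusters passed at day 28, and 82.6% of the 23 clusters did, so the share among the PT clusters was close to the background. The 4 shares add up to the whole and are not independent of each other. PT-S1S2 rose by 2.24 (SE 0.79, limma adjusted p = 0.0215, exact two-sided permutation p = 0.0571) and PT-S2 by 1.18 (SE 0.39, limma adjusted p = 0.0188, exact two-sided permutation p = 0.0286). PT-S3_b fell by 1.70 (SE 0.51, limma adjusted p = 0.0121, exact two-sided permutation p = 0.0286). PT-S3_a differed by -0.79 (SE 0.49, limma adjusted p = 0.153).

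These calls depended on single pools and on the mitochondrial filter. The PT-S1S2 call was lost without control pool 3, day 28 pool 2 or day 28 pool 3 (limma adjusted p from 0.0537 to 0.0617). The PT-S2 call was lost without day 28 pool 1 or 2 (limma adjusted p = 0.0550 and 0.0537). It was also lost when pools were weighted by the counting precision of the share (limma adjusted p = 0.183). When only cells with at least 500 genes and at most 5% mitochondrial UMIs were kept, the difference of PT-S3_b was -0.97 (limma adjusted p = 0.0747) and that of PT-S3_a -1.43 (limma adjusted p = 0.0188). With the limit of 5% alone they were -0.91 (limma adjusted p = 0.106) and -1.40 (limma adjusted p = 0.0177), whereas 500 genes alone changed neither call. These separate limits were chosen after the data were seen. PT-S3_a also passed without day 28 pool 4 (-1.21, limma adjusted p = 0.0151).

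At day 84 no PT cluster passed the test against controls, and PT-S3_a had the highest share of the 4 in both pools. PT-S1S2 was 25.1% and 18.1%, PT-S2 3.51% and 8.50%, PT-S3_a 51.1% and 41.5%, and PT-S3_b 20.2% and 31.9% of the PT cells in day 84 pools 1 and 2. The limma differences from controls ran from -1.14 for PT-S3_b to 0.92 for PT-S3_a, with adjusted p from 0.155 to 0.437, while 39.1% of the 23 clusters passed. None reached an unadjusted p under 0.05 either. With pools weighted by the counting precision of the share, PT-S3_b passed (-1.82, limma adjusted p = 0.0339). Between day 84 and day 28, PT-S2 fell by 1.72 (SE 0.48, limma adjusted p = 0.0335, where 17.4% of the clusters passed, exact two-sided permutation p = 0.0667, the smallest possible). That call was lost without control pool 4, day 28 pool 1, day 28 pool 2 or day 84 pool 1 (limma adjusted p from 0.0537 to 0.267). It was also lost with the limits on genes and mitochondrial UMIs, together or alone (limma adjusted p from 0.0638 to 0.0861). The same held without cells in shared droplets (0.0899) and without pools under 50 PT cells (0.0537). With pools weighted by the counting precision of the share it was lost too (0.113), in all in 10 of 19 alternatives. PT-S3_a differed by 1.72 (SE 0.60, limma adjusted p = 0.0725), and both day 84 pools lay above all 4 day 28 pools. As a description, the 2 S3 clusters together were 71.8%, 90.1%, 82.0% and 56.5% of the control PT cells, 38.6%, 29.8%, 36.6% and 59.9% of those at day 28, and 71.4% and 73.4% at day 84.

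**Figure D2:**
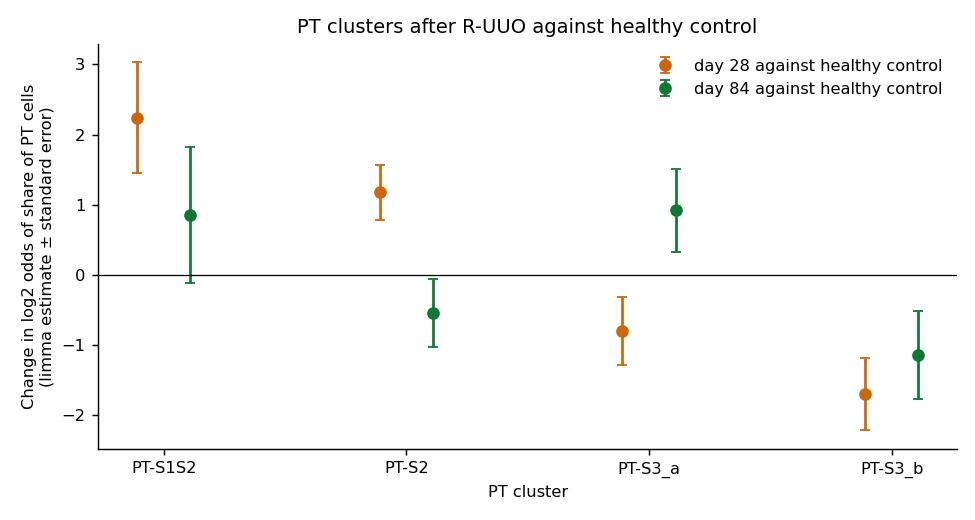
Difference from healthy controls in the log2 odds of each cluster among PT cells (points, limma estimates; bars, ± 1 standard error; 4 control, 4 day 28 and 2 day 84 pools). At day 28 PT-S1S2 (2.24) and PT-S2 (1.18) lie above 0 and PT-S3_b (-1.70) below it, and at day 84 none of the 4 passed the test.

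PT cells were next set against the clusters named for the outer medulla, since the amount of outer medulla in a dissection varied. These were the thick ascending limb clusters OSOM-TAL_a, OSOM-TAL_b and ISOM-TAL, named for the outer and inner stripe, and the collecting duct clusters OM-CD_a and OM-CD_b. There were 0.163, 0.431, 0.292 and 0.0505 PT cells per ISOM-TAL cell in the control pools, 4.30, 5.73, 4.29 and 1.93 at day 28, and 2.58 and 2.35 at day 84, with no overlap between either R-UUO group and the controls. Nor was there overlap per OM-CD_a cell, with 0.0137 to 0.431 in controls, 0.702 to 5.18 at day 28 and 0.539 to 1.16 at day 84. Per OSOM-TAL_a cell there were 0.118, 0.497, 0.196 and 0.0297 PT cells in controls, 2.59, 2.75, 1.65 and 0.377 at day 28, and 1.02 and 1.48 at day 84. Per OSOM-TAL_b cell the order was different: 2.24, 1.59, 3.04 and 0.235 in controls, 2.91, 3.18, 3.64 and 0.715 at day 28, and 0.525 and 0.671 at day 84. Cluster OSOM-TAL_b itself held 0.194% to 1.90% of the control cells, 3.57% to 7.82% at day 28 and 6.86% to 11.4% at day 84.

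At day 28, log2 PT ratios rose by 4.39 against ISOM-TAL (SE 1.18, limma adjusted p = 5.1e-04, exact two-sided permutation p = 0.0286), by 3.41 against OSOM-TAL_a (adjusted p = 0.00589, exact two-sided permutation p = 0.0571), by 5.17 against OM-CD_a (adjusted p = 6.2e-05) and by 3.54 against OM-CD_b (adjusted p = 0.00442). Against OSOM-TAL_b the difference was 0.81 (SE 1.18, limma adjusted p = 0.514). Of 24 such ratios, 1 for each cluster or cell type outside PT, 79.2% passed. All of them contain the same PT counts, so they are not independent. At day 84 the ratio to ISOM-TAL (3.77, SE 1.45, limma adjusted p = 0.0343, exact two-sided permutation p = 0.0667) and to OM-CD_a (3.36, limma adjusted p = 0.0463, exact two-sided permutation p = 0.133) passed, as did 45.8% of the 24. Those to OSOM-TAL_a (3.16, adjusted p = 0.0567), OM-CD_b (1.94, adjusted p = 0.219) and OSOM-TAL_b (-1.09, adjusted p = 0.494) did not. The ratio to OSOM-TAL_a did pass in 7 of 16 alternatives, and those to OM-CD_b and OSOM-TAL_b in 0 of 16. With at least 500 genes and at most 5% mitochondrial UMIs, the ratio to OSOM-TAL_a rose by 3.63 (limma adjusted p = 0.0168). The 2 day 84 calls were lost when either day 84 pool was left out (limma adjusted p from 0.117 to 0.252) and in several of the fits without 1 other pool, namely control pool 1 or day 28 pool 3 for both, and control pool 3 or 4 or day 28 pool 1 or 2 for OM-CD_a. With only the outer medullary clusters and PT as denominator, the day 28 PT share still passed (3.89, limma adjusted p = 0.00228) and the day 84 share did not (2.60, adjusted p = 0.115). All of these reference clusters are outer medullary, whereas S1 and S2 lie in the cortex and medullary rays. The ratios therefore cannot show how much cortex a dissection held, and its part in these shares was not tested.

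**Figure D3:**
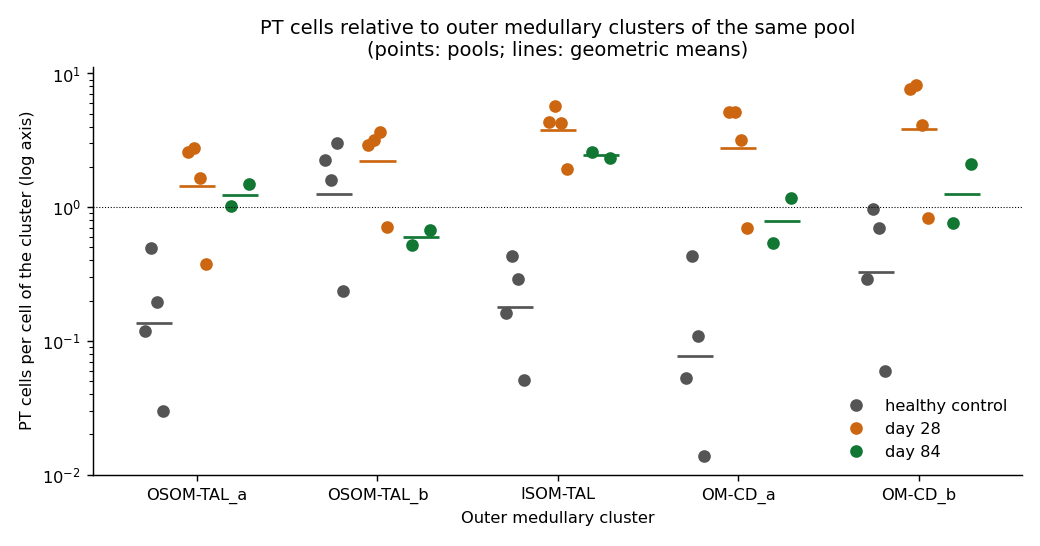
PT cells per cell of each outer medullary cluster of the same pool (log axis; points, pools; short lines, geometric means of a group; dotted line, equal numbers). Both R-UUO groups lie above all controls against ISOM-TAL and OM-CD_a, whereas against OSOM-TAL_b the day 84 pools (0.525 and 0.671) lie among the controls (0.235 to 3.04).

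PT cells carried more UMIs than the other cells of their pool in 10 of 10 pools. The median was 2362, 4202, 1940 and 1914 UMIs per PT cell in the control pools, 4041, 3074, 2035 and 1995 at day 28, and 1119 and 1267 at day 84. Other cells of the same pools had medians of 1137, 1552, 1167 and 1206 in controls, 3129, 2029, 1832 and 1560 at day 28, and 903 and 728 at day 84. PT cells were therefore 1.59 to 2.71 times as deep as the rest in controls, 1.11 to 1.52 times at day 28, and 1.24 and 1.74 times at day 84, and the control and day 28 ranges did not overlap.

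The PT median itself differed between day 28 and controls by 0.11 on the log2 scale (SE 0.25, limma adjusted p = 0.654 over 7 cell types, of which 42.9% passed). Relative to the other cells of the pool it fell by 0.60 (SE 0.17, limma adjusted p = 0.00889, exact two-sided permutation p = 0.0286), and 71.4% of the 7 cell types passed on this relative scale. With the mean of log2 UMIs in place of the median it differed by -0.40 (limma adjusted p = 0.0659). At day 84 the PT median fell by 1.05 against controls (SE 0.31, limma adjusted p = 0.00910, exact two-sided permutation p = 0.133), as the only 1 of 7 cell types, or 14.3%, to pass in limma. The median change over the 7 cell types was -0.64, and 4 of them had an unadjusted limma p under 0.05, so lower depth was not particular to PT. Against day 28 the PT median fell by 1.16 (limma adjusted p = 6.0e-04), where 100% of the cell types passed. The call against controls was lost without control pool 2 or without either day 84 pool (limma adjusted p from 0.0668 to 0.0998). Relative to other cells, day 84 differed from controls by -0.42 (SE 0.20, limma adjusted p = 0.406).

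Detected genes followed the UMIs. PT cells had median counts of 1666, 2272, 1371 and 1238 genes in the control pools, 2224, 1860, 1400 and 1367 at day 28, and 903 and 961 at day 84, all above the other cells of the same pool. Against controls, day 28 differed by 0.08 on the log2 scale (limma adjusted p = 0.697), whereas day 84 fell by 0.77 (SE 0.24, limma adjusted p = 0.0133, exact two-sided permutation p = 0.133). Of the cell types, 57.1% and 85.7% passed in the 2 comparisons. Against day 28, day 84 fell by 0.85 (limma adjusted p = 7.3e-04), and 100% of the cell types passed. Among cells with 1000 to 2000 UMIs only, the PT median was 1215, 936 and 1005 genes in control pools 1 to 3, 917.5 to 1092 at day 28, and 1055 and 1032 at day 84. In that band day 28 differed from controls by -0.03 (SE 0.07, limma adjusted p = 0.688) and day 84 by -0.0029 (SE 0.09, limma adjusted p = 0.974), with control pool 4 left out of this fit because it had 9 such PT cells. In the band 42.9% and 28.6% of the cell types passed.

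Among the clusters, PT-S3_a cells were the deepest of the 4 in 7 of 10 pools, with medians of 2667, 4138, 2920 and 3075 UMIs in the controls, 4877, 3243, 3651 and 2596 at day 28, and 1233 and 1381 at day 84. PT-S2 and PT-S3_b cells of most pools, controls included, showed fewer genes for their UMIs. Among cells with 1000 to 2000 UMIs, control pool 2 had medians of 948 genes in 11 PT-S2 and 926.5 in 80 PT-S3_b cells. The medians there were 1105.5 in 4 PT-S1S2 and 1129 in 5 PT-S3_a cells. In the band of 1000 to 2000 UMIs, day 28 pool 1 had medians of 853 genes in PT-S2 and 914 in PT-S3_b against 1126 in PT-S1S2, and day 28 pool 3 had 842 and 877 against 1165 in PT-S1S2 and 1127 in PT-S3_a. Day 28 pool 4 was an exception, with 1150 genes in 12 PT-S2 cells against 1055 in PT-S1S2.

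**Figure D4:**
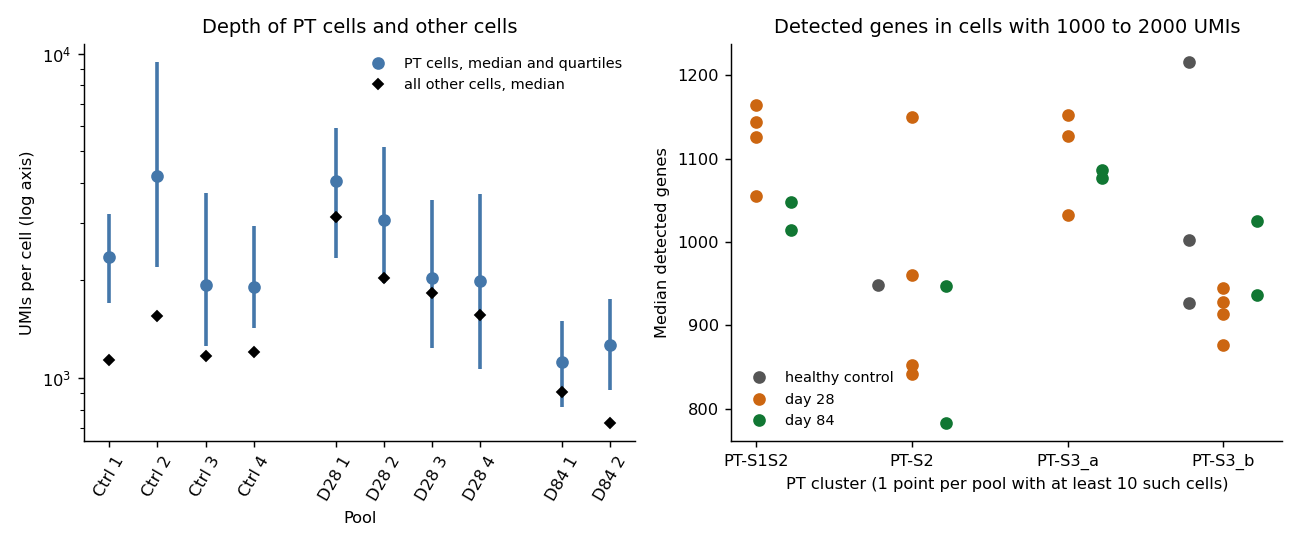
Left, UMIs per PT cell by pool (circles, medians; lines, quartiles; log axis) with the median of all other cells (diamonds); right, median detected genes of PT cells with 1000 to 2000 UMIs by cluster, 1 point per pool with at least 10 such cells. PT cells exceed the other cells in all 10 pools, and in the band PT-S3_b lies at 877 to 945 genes at day 28 while PT-S1S2 lies at 1055 to 1165.

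PT-S2 and PT-S3_b cells held a higher percentage of mitochondrial UMIs than PT-S1S2 and PT-S3_a cells. PT-S2 cells averaged 3.83%, 5.86%, 5.41% and 2.33% mitochondrial UMIs in control pools 1 to 4, the last being 1 cell, and 2.01%, 1.32%, 1.90% and 1.76% at day 28. PT-S3_b cells averaged 3.89%, 5.36%, 4.98% and 6.60% in the controls and 1.43%, 0.897%, 1.55% and 1.80% at day 28. PT-S1S2 cells averaged only 0.771%, 2.31%, 1.89% and 0.919% in the controls and 0.231%, 0.102%, 0.117% and 0.206% at day 28, and PT-S3_a cells 1.18%, 2.33%, 1.13% and 0.600% in the controls and 0.162%, 0.0384%, 0.0774% and 0.0539% at day 28. In 9 of 10 pools both PT-S2 and PT-S3_b lay above both PT-S1S2 and PT-S3_a. The exception was day 84 pool 2, where the means were 0.000701%, 0%, 0% and 0.0127% for PT-S1S2, PT-S2, PT-S3_a and PT-S3_b. In day 84 pool 1 they were 0.214%, 1.22%, 0.191% and 0.758%.

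This grouping was made after the values had been seen, and the clusters were formed on the expression of the same cells, so the contrast between clusters is a description with no test. Combined, PT-S2 and PT-S3_b had 2.32 to 7.61 times the mitochondrial percentage of PT-S1S2 and PT-S3_a in the control pools, 8.25 to 15.4 times at day 28 and 4.17 times in day 84 pool 1. Ranked by mean mitochondrial percentage among all 25 clusters, PT-S3_b was at rank 1, 2 or 3 in all 10 pools, the value in day 84 pool 2 being close to 0. The low clusters stood at 0.452 to 0.988 times the mean of the other cells in controls, 0.488 to 0.939 times at day 28, and 1.54 and 0.00187 times in day 84 pools 1 and 2.

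**Figure D5:**
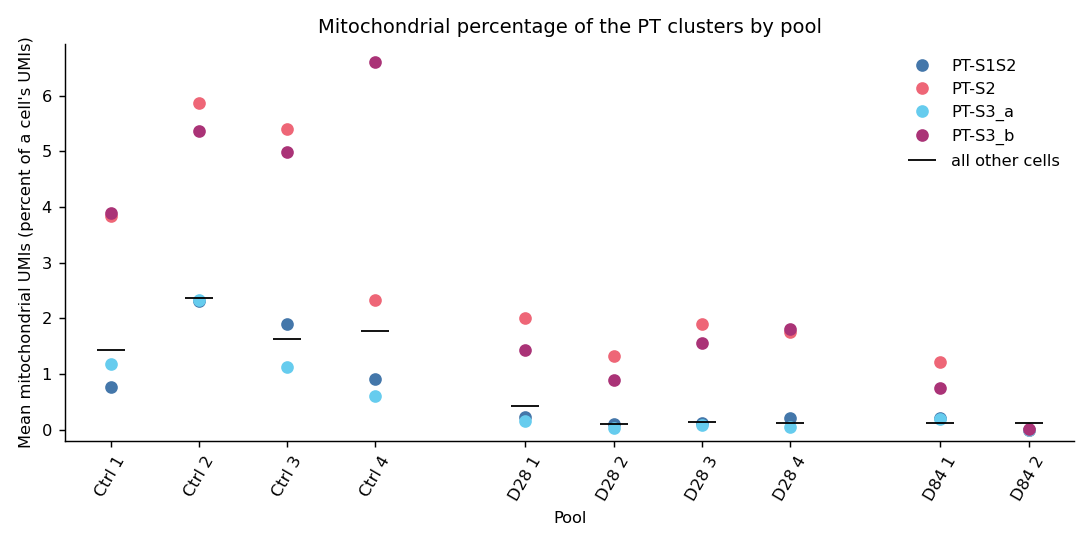
Mean mitochondrial UMIs as a percent of the UMIs of a cell, for each PT cluster (coloured points) and for all other cells of the pool (black lines). PT-S2 and PT-S3_b stand above PT-S1S2 and PT-S3_a in every pool except day 84 pool 2, and the day 28 values of PT-S3_b (0.897% to 1.80%) lie below its control values (3.89% to 6.60%).

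Across all PT cells the mean mitochondrial percentage was 2.02%, 4.55%, 3.46% and 2.89% in the controls (mean 3.23% ± 1.06, SD, n = 4), 0.845%, 0.458%, 0.640% and 0.685% at day 28 (0.657% ± 0.159, SD, n = 4) and 0.348% and 0.00416% at day 84. It exceeded that of the other cells of the pool in 9 of 10 pools, the exception being day 84 pool 2 (0.114% in other cells). It fell by 2.57 percentage points at day 28 (SE 0.42, limma adjusted p = 1.3e-04, exact two-sided permutation p = 0.0286) and by 3.05 at day 84 (SE 0.52, limma adjusted p = 3.5e-04, exact two-sided permutation p = 0.0667). All 7 cell types, or 100%, passed in both comparisons, so a fall was common to the whole dissections. Without day 84 pool 2 the difference at day 84 was -2.88 (limma adjusted p = 0.00528).

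Counted in percentage points, the PT fall was larger than that of the other cells of the pool, by 0.98 percentage points at day 28 (SE 0.29, limma adjusted p = 0.00892, exact two-sided permutation p = 0.0286) and by 1.38 at day 84 (SE 0.35, limma adjusted p = 0.00464, exact two-sided permutation p = 0.133), with 71.4% of the cell types passing on this scale in each. PT cells also started from a higher level, and as a ratio, a scale chosen after the data were seen, the day 28 difference had the opposite sign. The PT mean was 1.41, 1.93, 2.13 and 1.62 times that of the other cells in the controls, 1.97, 4.19, 4.38 and 5.47 times at day 28, and 2.69 and 0.0365 times at day 84. The log2 ratio differed from controls by 1.10 at day 28 (SE 1.09, limma adjusted p = 0.451) and by -2.48 at day 84 (SE 1.34, adjusted p = 0.159). Among cells with at least 500 genes and at most 5% mitochondrial UMIs, the PT value less that of other cells changed little from controls. That change from controls was 0.0018 percentage points at day 28 (limma adjusted p = 0.992) and -0.30 at day 84 (adjusted p = 0.266). With the median percentage in place of the mean, the changes from controls were -1.22 (adjusted p = 0.112) and -1.22 (adjusted p = 0.207).

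By cluster, every PT cluster fell at day 28, as did 100% of the 25 clusters. The difference was -3.89 percentage points in PT-S2 (limma adjusted p = 1.1e-07, 2 control pools with at least 10 cells), -3.32 in PT-S3_b (adjusted p = 3.5e-07, 3 control pools), -1.49 in PT-S1S2 (adjusted p = 1.8e-04, 3 control pools) and -1.47 in PT-S3_a (adjusted p = 1.1e-04, 3 control pools). Less the value of the other cells of the same pool, in percentage points, PT-S2 fell by 2.10 (limma adjusted p = 4.9e-04) and PT-S3_b by 1.72 (adjusted p = 6.0e-04), and 80% of the 25 clusters passed. PT-S1S2 (0.11, SE 0.20, adjusted p = 0.592) and PT-S3_a (0.14, SE 0.13, adjusted p = 0.334) did not, although PT-S1S2 passed without cells in shared droplets (0.59, limma adjusted p = 0.0175). At day 84 the same 4 clusters passed on the absolute scale, again with 100% of clusters, and PT-S2 (-3.15) and PT-S3_b (-2.67) passed in percentage points less the other cells (limma adjusted p = 1.6e-04 for each), with 76% of the clusters. As a ratio to the other cells none of these differences passed. PT-S2 and PT-S3_b combined had 2.70, 2.29, 3.11 and 3.44 times the mitochondrial percentage of the other cells in the controls, 4.03, 10.7, 11.4 and 14.3 times at day 28, and 6.41 and 0.0876 times at day 84, so that all 4 day 28 pools and day 84 pool 1 lay above every control. On the log2 ratio scale PT-S2 differed from controls by 1.81 (limma adjusted p = 0.0820) and PT-S3_b by 1.59 (adjusted p = 0.234) at day 28, and at day 84 they differed by 1.72 (adjusted p = 0.439, day 84 pool 2 left out because its PT-S2 mean was 0) and -1.72 (adjusted p = 0.487).

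All but 2 of the 1003 control PT cells had at least 1 mitochondrial UMI. No PT cell without one was found in control pools 1, 2 and 4 (0 of 85, 734 and 23, which allow shares of up to 3.53%, 0.409% and 13.0%), and 1.24% had none in control pool 3. The share without any was 22.8%, 44.2%, 50.2% and 42.5% at day 28 and 28.8% and 97.2% at day 84. Other cells of these pools lacked mitochondrial UMIs more often at day 28, at 38.0%, 73.6%, 77.0% and 75.2%. The PT share without any rose in both comparisons, with a limma adjusted p of 0.00291 at day 28 and of 7.9e-04 at day 84, and 100% of the cell types passed in each. At day 28 the clusters split as in the means: 37.2% to 73.4% of PT-S1S2 and 42.0% to 71.8% of PT-S3_a cells had none, against 0% to 6.07% of PT-S2 and 1.01% to 10.5% of PT-S3_b cells.

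The mitochondrial filter of the study, at most 10%, lay close to the values of control PT cells. In the control pools 3.53%, 7.63%, 10.6% and 17.4% of the PT cells had between 8% and 10% mitochondrial UMIs, against 0.586%, 1.57%, 0.547% and 0.842% of the other cells, and at day 28 the PT values were 0.202%, 0.101%, 0.420% and 0%. A limit of 5% mitochondrial UMIs and 500 genes kept 76 of 85, 399 of 734, 104 of 161 and 17 of 23 control PT cells, but 2877 of 2965, 2910 of 2969, 1967 of 2145 and 410 of 459 at day 28. By cluster it kept 29.4% of PT-S2 and 41.3% of PT-S3_b cells in control pool 2, against 95.5% of PT-S1S2 and 91.2% of PT-S3_a. How many PT cells the 10% filter removed before deposit, and its part in the shares, was not tested. With the stricter limit the PT share rose by 4.76 at day 28 (limma adjusted p = 0.00321) and by 3.77 at day 84 (adjusted p = 0.0368).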

How the data were processed

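The authors made the per-cell tables from 10x Flex libraries, with Cell Ranger 7.1 and mm10 per the submitters' processing notes. Their methods state that cells with fewer than 300 genes or over 10% mitochondrial reads, ambient RNA (SoupX) and doublets (scDblFinder) were removed, and that clusters came from Seurat. The deposited tables give, for each cell, UMI counts (expected counts, not all whole, in control pool 1), the count of detected genes, the percent of mitochondrial UMIs, pool, cell type and cluster. In them, 3 PT cells had fewer than 300 genes and 1 exceeded 10%. Each pool was 1 replicate. Shares were analysed as log2 odds (0.5 cells added to each part), UMIs and genes as log2 medians, and mitochondrial percentages as means, in 1 limma 3.58.1 fit over the 10 pools (R 4.3.3) with Benjamini-Hochberg adjustment over all features of a fit and a threshold of 0.05. Pools with fewer than 10 cells of a type were left out of fits on UMIs, genes and mitochondria. P-values set a difference between groups against the spread between pools, which limma moderates over the features of a fit. They do not cover differences between runs, since run and condition cannot be told apart. Only the fit of cluster shares within a cell type, day 28 against controls, was tried on simulated data. The other fits and the day 84 comparisons were not. edgeR 4.0.16 on cell numbers was an alternative. All 4 PT clusters, the outer medullary clusters and cell types are named by rule. Members, lists and tests were chosen with earlier results of these data known.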

Additional observations from a re-analysis of the deposited data

Results flagged for a closer look

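In 1 of 42 sets of 4 pools a value lay far from the rest, where chance gives about 2.1. This was the share of PT cells without mitochondrial UMIs in the controls, which was 1.24% in control pool 3 and 0 in the other 3 control pools and rests on 2 cells. Day 84 and day 28 differed in 3 PT measures. The log2 odds of PT-S2 among PT cells differed by -1.72 (limma adjusted p = 0.0335). Median UMIs per PT cell differed by -1.16 (limma adjusted p = 6.0e-04) and median detected genes by -0.85 (limma adjusted p = 7.3e-04) on the log2 scale, with both day 84 pools below all 4 day 28 pools. In both of these 100% of the 7 cell types passed, with medians over the cell types of -1.21 for UMIs and -0.98 for genes. For the PT-S2 share, 17.4% of 23 clusters passed.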

How the results depend on the processing

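Across 60 results, 965 of 1071 alternatives kept the direction and the side of the threshold (or the count within 1.5 times), and 106 did not. Of these, 24 changed sign, 6 of them in a result past the threshold. The limits on genes or mitochondrial UMIs alone and the log2 ratio to other cells were added after the data were seen. Except where stated, the cause was not tested. With at least 500 genes and at most 5% mitochondrial UMIs, the PT share at day 84 against control was 3.77 and PT UMIs relative to other cells at day 84 were -0.67 (limma adjusted p = 0.0159), both then past the threshold (with 500 genes alone, -0.71 for the latter). With both limits, the day 28 change from controls in PT mitochondrial percentage less that of other cells changed sign to 0.0018. With the mean of log2, relative PT UMIs at day 28 were -0.40. Among cells with 1000 to 2000 UMIs, the difference in detected genes between day 84 and day 28 changed sign to 0.0274. The log2 ratio to other cells changed the sign of the mitochondrial difference at day 28 for PT (1.10), PT-S2 (1.81), PT-S3_b (1.59) and PT-S3_a (-0.99), and at day 84 for PT-S2 (1.72) and PT-S1S2 (-3.07). The PT results short of the threshold also changed sign in places. PT genes at day 28 were -0.0806 without shared droplets, -0.0456 with at least 50 cells and -0.0303 with 1000 to 2000 UMIs, and PT UMIs at day 28 were -0.0083 with at least 50 cells. Relative PT genes at day 84 were 0.0718 with 1000 to 2000 UMIs. With the median percentage, the change from controls in PT-S1S2 less other cells was -0.0828 at day 28 and -0.0263 at day 84. With precision weights, 1 PT cluster passed at day 84 as a share of PT cells instead of 0. Leaving out each of the 10 pools in turn gave 2.27 to 3.85 for the PT share at day 84 and 3.57 to 5.16 at day 28, 1 to 4 PT clusters passing as shares of PT cells at day 28 (1 without day 28 pool 2), and 0 to 2 as shares of all cells at day 84 (1 without day 84 pool 1 and 0 without pool 2). The sign also changed within the ranges of the PT-S2 share at day 84 (-1.21 to 0.12, positive without day 84 pool 1), PT UMIs at day 28 (-0.0871 to 0.3698, negative without control pool 3 or 4 or day 28 pool 1), PT genes at day 28 (-0.0603 to 0.2463, negative without control pool 4 or day 28 pool 1), relative PT genes at day 84 (-0.3834 to 0.039, positive without day 84 pool 1) and PT-S1S2 mitochondrial UMIs less other cells (-0.1479 to 0.3189 at day 28 and -0.1241 to 0.3428 at day 84, negative without control pool 1). Where 1 day 84 pool was left, it was assumed to vary like the others. No paired analysis was possible because the labels give 1 sample per group, and the pool numbers mark no shared animals. Depth limits the controls most, since control pool 4 held 23 PT cells.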
